A study of Caenorhabditis elegans with 9 samples.

Results

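The genes described here encode digestive and lysosomal proteases of Caenorhabditis elegans. They were taken from the deposited gene table by name and biotype: protein-coding genes called asp, cpr, cpl, cpz or pcp followed by a number. The table of 46986 genes held 33 of them, of which 17 are asp genes, 8 cpr, 1 cpl, 2 cpz and 5 pcp. Total RNA of whole worms (tissue label "whole tissue") had been sequenced in 9 libraries, 3 in each of 3 groups. FA worms were kept on the high-fat condition and were given farrerol, a flavanone of plants. HFD worms had the high-fat condition alone, and OP worms served as controls. The series title names citrate as the inducer of fat in the worm and the transcription factor DAF-16 as the route of farrerol's action. Strain, age and doses are not stated in the sources read. Whether the libraries of one group stem from separate cultures is not stated either, so the p-values speak only of the scatter among these libraries, and part or all of that scatter may be technical.

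In the nematode, much of the protein in swallowed bacteria is broken down by aspartyl and cysteine proteases made in the intestinal cells, some secreted into the gut lumen and others kept in lysosomes. Aspartyl proteases of the cathepsin D and pepsin kind use a pair of aspartates to activate water, whereas cathepsins B, L and Z attack the peptide bond with a cysteine. Both kinds are made as inactive precursors, work best in acid compartments, and also serve in yolk turnover, moulting and cell death. The deposited descriptions matched this for the asp genes, all annotated as eukaryotic aspartyl proteases, and for the cpr, cpl and cpz genes, all annotated as papain family cysteine proteases. The 5 pcp genes were annotated as serine carboxypeptidases of family S28, so they are neither aspartyl nor cysteine proteases. They are kept here because the naming rule includes them, and they are called serine carboxypeptidases.

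The genes were not spread evenly over the genome. Chromosome V held 23 of the 33 (69.7%), against 25.0% of all protein-coding genes in the table. In build WBcel235, 6 groups of neighbours lay within 10 kb of each other. The longest held asp-17, asp-16, asp-15 and asp-1 (chromosome V, 19035723 to 19050752), and another held asp-6, asp-12 and asp-5 (chromosome V, 8267511 to 8274044). Neighbouring members of a family can be similar in sequence, and reads shared between such copies may have been split or dropped, since no source read here states how the authors counted. Most members have several exons, from 2 to 9 per transcript, but asp-1 and asp-19 are single-exon genes in the Ensembl annotation.

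Transcript levels are given as FPKM, that is scaled to gene length and to a size set for each library, and so can be compared between genes. That size was not the number of reads on genes. It was 17748003 for FA replicate 2, with 20056071 reads, and 23047890 for FA replicate 3, with 20166991 reads. Testing was limited to the 14730 genes that reached 1 FPKM in 3 or more libraries, and 26 of the 33 proteases were among them. The most abundant was asp-1, an aspartyl protease of the intestine, which ranked 7 among the 13911 protein-coding genes tested. By mean over the 9 libraries asp-1 stood at 5141 FPKM, followed by asp-6 at 1726, asp-3 at 1652, cpr-1 at 1466 and asp-5 at 1006 FPKM. In all, 13 of the proteases were among the 500 most abundant protein-coding genes. At the other end of the tested range were asp-17 at 6.37, pcp-4 at 11.1, cpr-3 at 11.7 and cpr-8 at 12.1 FPKM. The cathepsin Z gene cpz-1 averaged 490.1 FPKM and its relative cpz-2 170.3, while the serine carboxypeptidases ranged from pcp-4 up to 57.2 FPKM for pcp-1.

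**Figure D1:**
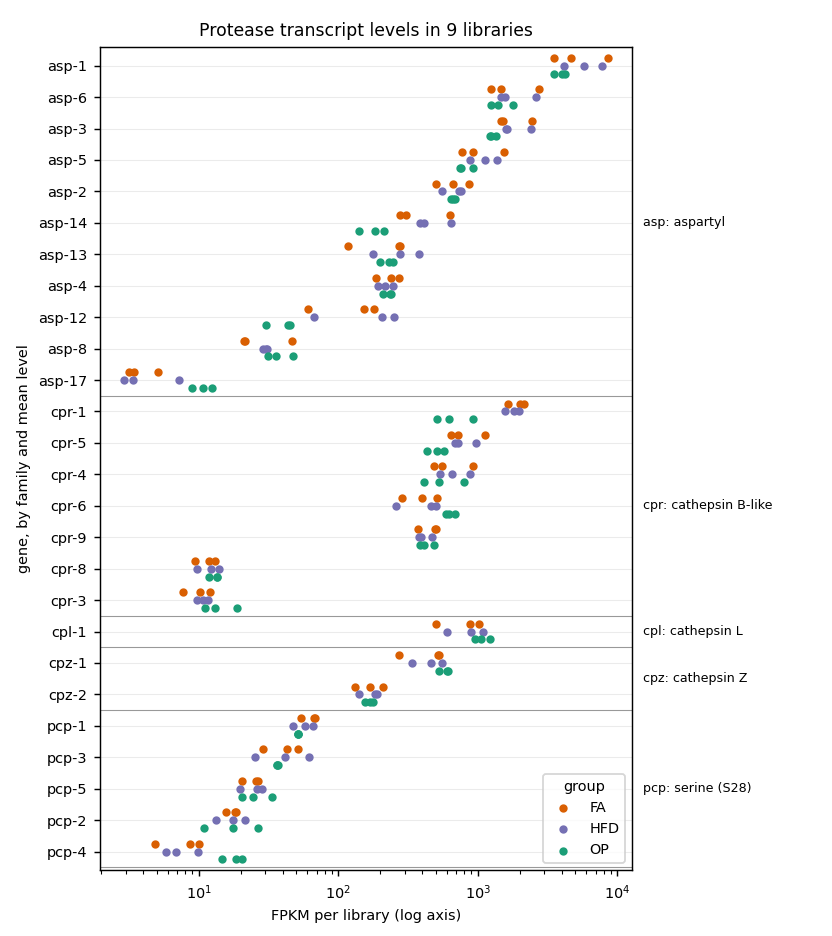
Level of each of the 26 tested proteases in every library (horizontal log axis, FPKM), by family and mean level; each point is 1 library, with FA above HFD and OP within a row. Mean levels run from 6.37 FPKM for asp-17 to 5141 FPKM for asp-1, and most genes overlap between the groups.

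Together the 33 genes took 2.18% ± 0.469 of the reads on genes in FA libraries, 2.28% ± 0.558 in HFD libraries and 1.76% ± 0.171 in OP libraries (SD, n = 3 each). The aspartyl protease genes made up most of this, with 1.49% ± 0.418 in FA, 1.59% ± 0.455 in HFD and 1.15% ± 0.0912 in OP. The cathepsin B-like genes took 0.493% ± 0.0349 in FA, 0.475% ± 0.0725 in HFD and 0.350% ± 0.0634 in OP. Of this family share, cpr-1 alone took 0.208% ± 0.00666 in FA, 0.191% ± 0.0302 in HFD and 0.0755% ± 0.0239 in OP. The single cathepsin L gene, cpl-1, took 0.0935% ± 0.0215 in FA, 0.102% ± 0.0302 in HFD and 0.131% ± 0.0168 in OP. The ranges of the groups overlapped for the proteases as a whole.

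The comparison of HFD with OP asks what differed under the high-fat condition. The tests were made with limma on log2(FPKM + 1) over all 14730 genes, two-sided, with calls made where the p adjusted by Benjamini-Hochberg was under 0.05. Of the 26 tested proteases 3 rose (cpr-1, asp-14 and asp-12) and 2 fell (asp-17 and pcp-4), while 21 did not pass. Over all genes tested 2.74% were called higher and 4.62% lower, 7.35% together. An unadjusted p under 0.05 was found for 7 of the 26 proteases and for 21.9% of all genes. The median log2 fold change of the proteases was 0.02, and that of all genes was 0.01. In these whole animals fewer cells of a type and less RNA per cell cannot be told apart.

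The gut cysteine protease gene cpr-1 (WBGene00000781, chromosome V, 11975551 to 11976756), whose cathepsin B-like product is made in the intestine, had 2007, 2144 and 1647 FPKM in FA libraries. It had 1557, 1978 and 1813 FPKM in HFD libraries, against 513, 617 and 920 FPKM in OP libraries. Every FA and HFD library lay above every OP library. In HFD against OP the log2 fold change was 1.42 (SE 0.24, 95% interval 0.90 to 1.94, adjusted p = 0.00752), and in FA against OP it was 1.53 (SE 0.24, interval 1.01 to 2.05, adjusted p = 0.00321). Both calls held whichever 1 library was left out, with adjusted p up to 0.0487 and 0.0220.

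The aspartyl protease gene asp-14 (WBGene00019619, chromosome X, 6444185 to 6446664) had 276, 635 and 304 FPKM in FA, 414, 383 and 642 FPKM in HFD, and 214, 182 and 141 FPKM in OP. Again no FA or HFD library fell into the OP range, and 1 library in each high-fat group, FA replicate 2 and HFD replicate 3, stood well above its 2 partners. The log2 fold change was 1.397 in HFD against OP (SE 0.32, interval 0.70 to 2.10, adjusted p = 0.0262). That call was lost without any 1 library but OP replicate 1, with adjusted p of 0.0947 and 0.105 when OP replicate 2 or 3 was dropped, and of 0.0501, 0.0640 and 0.0784 for HFD replicates 1, 2 and 3 in turn.

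The largest fold among the called proteases was that of asp-12 (WBGene00017678, chromosome V, 8269210 to 8272056), another aspartyl protease gene. It had 61.0, 181 and 154 FPKM in FA, 67.1, 205 and 253 FPKM in HFD, and 30.3, 45.02 and 43.8 FPKM in OP. In both high-fat groups replicate 1 lay near the OP range and the others far above it. The log2 fold change in HFD against OP was 1.93 (SE 0.49, interval 0.84 to 3.02, adjusted p = 0.0428), and the call was kept without HFD replicate 1 (0.00800) and lost without any other library of these groups, with adjusted p of 0.106 to 0.153. Robust moderation also ended it (adjusted p = 0.0893). The genes on either side of it, asp-6 and asp-5, did not pass in the same comparison (log2 fold changes 0.32 and 0.46, adjusted p = 0.638 and 0.365).

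Of the genes that fell, asp-17 (WBGene00012683, chromosome V, 19035723 to 19037322) is an aspartyl protease gene that has been tied, with cpr-3, to the death of worms after cold. Its level was 3.18, 5.12 and 3.41 FPKM in FA, 2.91, 3.35 and 7.26 FPKM in HFD, and 9.01, 10.7 and 12.4 FPKM in OP. All FA and HFD libraries lay below all OP libraries, and HFD replicate 3 came closest to them. The log2 fold change in HFD against OP was -1.16 (SE 0.27, interval -1.77 to -0.55, adjusted p = 0.0313), which was lost without OP replicate 2 or 3 (0.114 and 0.118) or HFD replicate 1 or 2 (0.0963 and 0.126). The other gene of that pair, cpr-3, averaged 9.95 ± 2.18 FPKM in FA, 10.7 ± 1.03 in HFD and 14.3 ± 3.97 in OP, and did not pass in any comparison.

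The serine carboxypeptidase gene pcp-4 (WBGene00003959, chromosome V, 19822734 to 19831011) had 8.58, 10.04 and 4.89 FPKM in FA, 9.95, 5.85 and 6.85 FPKM in HFD, and 20.4, 18.4 and 14.6 FPKM in OP. Its high-fat libraries, with and without farrerol, all lay below its control libraries. The log2 fold change in HFD against OP was -1.15 (SE 0.25, interval -1.71 to -0.60, adjusted p = 0.0236), and it was lost without OP replicate 1 or 2 (0.0665 and 0.0963) or HFD replicate 2 or 3 (0.0989 and 0.0646). None of the other 4 serine carboxypeptidase genes passed in any comparison.

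**Figure D2:**
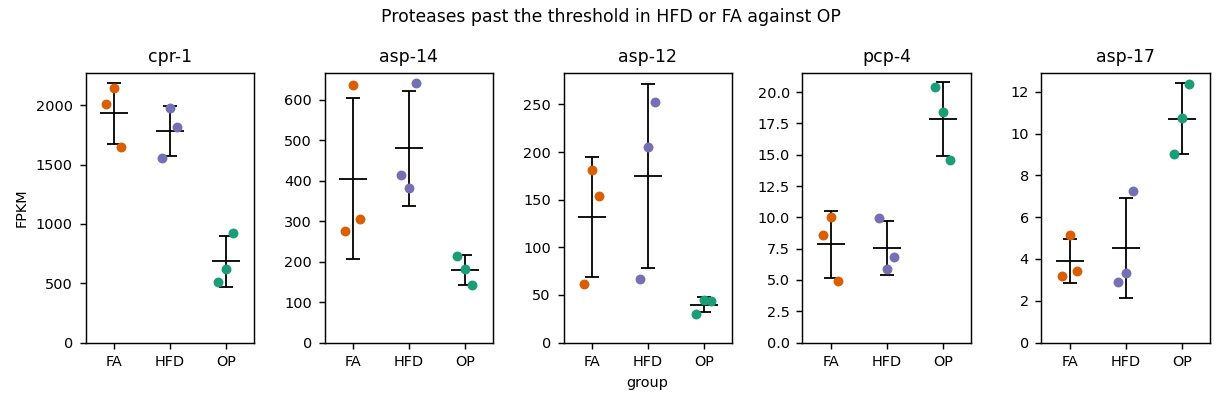
FPKM of the 5 proteases called in HFD against OP or FA against OP (vertical axes start at 0, one scale per gene); points are libraries, and the bar and whiskers give the mean and SD of 3. For cpr-1, asp-14 and asp-12 the FA and HFD points lie above all OP points, and for pcp-4 and asp-17 below them.

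Markers of other tissues also differed between these groups. Of 10 oocyte genes 9 fell in HFD against OP, and their summed level was 272 to 373 FPKM in HFD libraries, against 675 to 947 in OP libraries. That count was 2 when OP replicate 2, OP replicate 3 or HFD replicate 2 was dropped, 5 for HFD replicate 3, 8 for HFD replicate 1 and 10 for OP replicate 1. Of 9 measured sperm genes 1 fell (gsp-4), with sums of 133 to 164 FPKM in HFD and 192 to 269 in OP; its call (adjusted p = 0.0452) was kept only without OP replicate 1, with values up to 0.177 otherwise. None of the 15 intestine markers passed, their median log2 fold change was -0.02, and they summed to 1459 to 2416 FPKM in HFD and 1542 to 1879 in OP. Of 8 epidermis genes 1 fell (col-19), with sums of 4294 to 4480 FPKM in HFD and 4564 to 4789 in OP. The level of col-19 was 171, 55.9 and 71.4 FPKM in HFD, against 728, 1001 and 971 in OP (log2 fold change -3.32, adjusted p = 0.00361). None of 8 muscle genes or 8 pharynx genes passed. All 8 pharynx genes had positive log2 fold changes, with a median of 0.38, and their sums did not overlap, at 395 to 479 FPKM in HFD and 294 to 369 in OP. Muscle genes summed to 4764 to 6396 FPKM in HFD and 3919 to 5192 in OP. No marker was at 0 in any library. The part of the oocyte, sperm, col-19 and pharynx differences in the protease results was not tested. A difference in age between the groups, whose ages are not stated, was not tested either.

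Of the abundant proteases that did not pass, asp-1, asp-6, asp-3, asp-5 and cpr-5 had higher means in HFD than in OP, and cpl-1 had a lower one. The intestinal gene asp-1 (WBGene00000214, chromosome V, 19049562 to 19050752) had 4654, 8613 and 3543 FPKM in FA, 5826, 4124 and 7741 FPKM in HFD, and 3546, 4013 and 4214 FPKM in OP. Its groups overlapped, and the log2 fold change in HFD against OP was 0.54 with an interval from -0.24 to 1.33 (adjusted p = 0.428). The cathepsin D-like gene asp-3, whose protein takes part in necrotic death of neurons, had 1473, 2442 and 1509 FPKM in FA, 1615, 1594 and 2413 in HFD, and 1244, 1219 and 1360.4 in OP. There FA and HFD libraries were all above OP libraries, but the log2 fold change of 0.53 (interval -0.02 to 1.08) did not pass (adjusted p = 0.248). The other cathepsin D-like gene with that role, asp-4, averaged 233 ± 44.4 FPKM in FA, 219 ± 26.9 in HFD and 228 ± 16.2 in OP.

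The aspartyl protease genes asp-6 and asp-5 showed the same order of means with overlapping groups. The level of asp-6 was 1469, 2745 and 1242 FPKM in FA, 1570.2, 1468 and 2612 in HFD, and 1242, 1399 and 1785 in OP. That of asp-5 was 925, 1548 and 775 FPKM in FA, 1123, 877 and 1378 in HFD, and 743, 754 and 928 in OP. For both genes FA replicate 2 and HFD replicate 3 held the highest values. The aspartyl protease genes asp-2 and asp-13 had HFD means of 682 ± 110.2 and 278 ± 101 FPKM, against OP means of 665 ± 24.3 and 226 ± 24.8 FPKM.

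Within the cathepsin B-like family the members differed. The level of cpr-5 was 722, 1123 and 639 FPKM in FA, 687, 721 and 973 in HFD, and 430, 507 and 573 in OP, so that FA and HFD lay above OP without overlap. Its log2 fold change of 0.65 in HFD against OP (interval 0.13 to 1.17) did not pass over all genes (adjusted p = 0.133). The level of cpr-6 was 513, 398 and 285 FPKM in FA, 500.01, 261 and 464 in HFD, and 588, 626 and 684 in OP, all FA and HFD libraries below OP, with a log2 fold change of -0.68 (interval -1.28 to -0.09, adjusted p = 0.167). The gene cpr-4, whose product is a secreted cathepsin B that signals radiation damage to distant cells, averaged 655 ± 239 FPKM in FA, 693 ± 172 in HFD and 581 ± 201 in OP. The level of cpr-9 averaged 456 ± 72.5, 414 ± 51.1 and 427 ± 53.3 FPKM in FA, HFD and OP.

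The cathepsin L gene cpl-1 and the cathepsin Z gene cpz-1, both needed for moulting and for embryos, had lower means in the high-fat groups. The level of cpl-1 was 883, 1018 and 505 FPKM in FA, 892, 601 and 1092 in HFD, and 955, 1062 and 1219 in OP. That of cpz-1 was 526, 517 and 272 FPKM in FA, 464, 336 and 558 in HFD, and 527, 601 and 610 in OP. HFD and OP overlapped for both genes, with log2 fold changes of -0.36 (interval -0.9996 to 0.28) and -0.38 (interval -0.97 to 0.21), adjusted p = 0.535 and 0.464.

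Counted by overlap rather than by the test, 5 of the 26 proteases had all HFD libraries above all OP libraries and 4 had all below. Over all genes tested the shares were 12.8% and 16.6%, together 29.3%, so the proteases stood near the background by this count.

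Set against HFD, the FA libraries show what differed with farrerol in worms that all had the high-fat condition. None of the 26 proteases passed in limma, and 0 had an unadjusted p under 0.05, where 2.5% of all genes did; limma's voom on the recovered reads also called 0. Over all genes tested 0.0% were called higher and 0.00679% lower. The proteases with the lowest p were asp-13, pcp-1, asp-14, cpr-9 and asp-12, each with an adjusted p of 1. The level of asp-13 was 279, 271 and 117 FPKM in FA against 378, 177 and 278 in HFD, a log2 difference of -0.35 (interval -1.11 to 0.40). That of pcp-1 was 67.3, 68.2 and 54.03 FPKM in FA against 66.3, 47.4 and 57.6 in HFD, a log2 difference of 0.15 (interval -0.18 to 0.47). These groups overlap in both genes. For asp-14, cpr-9 and asp-12 the log2 differences were -0.31 (interval -1.01 to 0.39), 0.13 (-0.25 to 0.51) and -0.34 (-1.43 to 0.75).

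For the genes called in HFD against OP the intervals of FA against HFD set what a farrerol effect could be at this spread. The log2 difference of cpr-1 was 0.11 (interval -0.41 to 0.64), that of asp-17 was -0.11 (-0.71 to 0.50) and that of pcp-4 was 0.03 (-0.53 to 0.59). These intervals include 0, and they leave room for differences in either direction up to their bounds. The median log2 difference of the 26 proteases was -0.06, against -0.0048 for all genes, and no protease had FA libraries all above or all below its HFD libraries; over all genes tested 1.83% lay all above and 3.27% all below, 5.1% together. No gene on any of the 12 lists of markers and functions passed in FA against HFD.

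FA was also compared with OP. This comparison shares the OP libraries with that of HFD against OP, so its values are given beside the others and not as a second sign of the same effect. Of the 26 proteases 2 rose (cpr-1 and asp-14) and 2 fell (asp-17 and pcp-4), where 4.61% of all genes tested were called higher and 9.96% lower, 14.6% together. An unadjusted p under 0.05 was found for 8 of the 26 proteases and for 27.7% of all genes. The log2 fold change of asp-14 was 1.09 (SE 0.32, interval 0.39 to 1.79, adjusted p = 0.0429). Its call was kept without FA replicate 1 (0.0192) and lost without any other library, with adjusted p of 0.0556 to 0.156. The log2 fold change of asp-12 was 1.59 (SE 0.49, interval 0.49 to 2.68), which did not pass (adjusted p = 0.0562) and did pass without FA replicate 1 (0.00934).

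In the other direction, asp-17 changed by -1.27 on the log2 scale in FA against OP (SE 0.27, interval -1.87 to -0.66, adjusted p = 0.0124) and pcp-4 by -1.13 (SE 0.25, interval -1.68 to -0.57, adjusted p = 0.0145). Without OP replicate 2 neither passed (adjusted p = 0.0502 and 0.0582), and without OP replicate 3 asp-17 did not (0.0541). Of the genes that did not pass, cpr-5 had a log2 fold change of 0.68 (interval 0.16 to 1.204, adjusted p = 0.0808) and cpr-6 one of -0.70 (interval -1.30 to -0.11, adjusted p = 0.115); cpr-6 passed without FA replicate 1 (0.0488). Those of asp-1, asp-3, asp-5, asp-6, cpl-1 and cpz-1 were 0.41, 0.47, 0.36, 0.23, -0.48 and -0.46, and none passed (adjusted p = 0.264 to 0.703). By overlap 6 proteases lay all above and 4 all below OP in FA, against 13.8% and 17.2% of all genes tested, together 31.0%. The 10 oocyte markers all fell in this comparison and their sums were 162 to 329 FPKM in FA, against 675 to 947 in OP; 4 of 9 sperm markers fell and 1 of 15 intestine markers (ifp-1) and 1 of 8 pharynx markers (tnc-2) rose, and col-19 of the epidermis fell. The oocyte count was 10 and col-19 passed whichever library was dropped. The call of ifp-1 was kept only without OP replicate 1 (up to 0.126), and those of tnc-2 and spe-10 only without FA replicate 1 (up to 0.109 and 0.0919). The sperm gene gsp-3 was lost without OP replicate 2 (0.0594), OP replicate 3 (0.0540) or FA replicate 2 (0.0521), while gsp-4 and spe-9 passed each time.

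**Figure D3:**
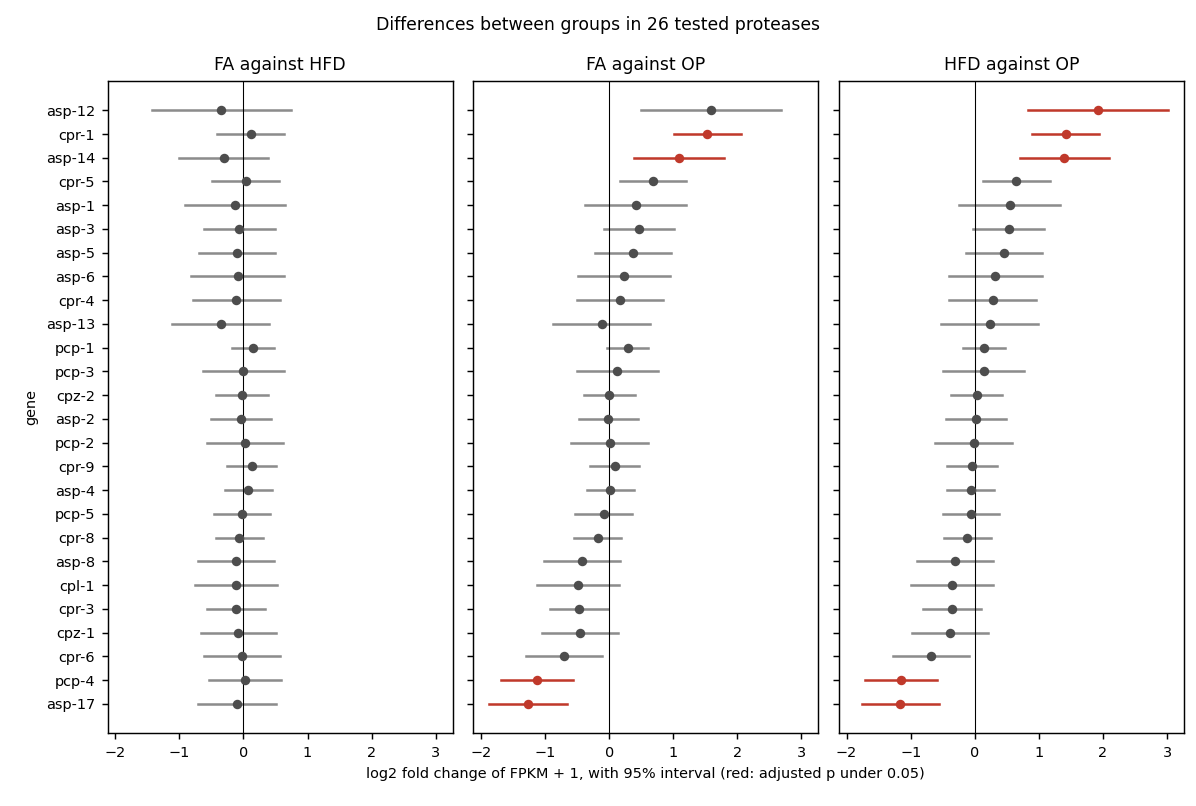
Log2 fold change of FPKM + 1 for each tested protease (points) with its 95% interval (lines), for FA against HFD, FA against OP and HFD against OP; red marks an adjusted p under 0.05. In FA against HFD every interval includes 0. In the other panels asp-12, cpr-1 and asp-14 lie to the right and pcp-4 and asp-17 to the left, with asp-12 red only in HFD against OP.

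The libraries of 1 group differed in their proteases. Among the FA libraries, replicate 2 held the highest value for 22 of the 26 proteases and replicate 3 the lowest for 20; over all genes tested those shares were 32.01% and 36.3%. Among the HFD libraries, replicate 3 was highest for 15 and replicate 2 lowest for 19 of the 26, against 34.4% and 31.8% of all genes. The coefficient of variation within a group had a median of 29.5% in FA, 24.0% in HFD and 12.7% in OP over the proteases, and of 19.1%, 14.5% and 14.05% over all genes tested. Intestine markers were also uneven, with FA replicate 3 lowest for 13 and HFD replicate 2 lowest for 14 of 15. FA replicate 2 was highest for 10 of these markers. In HFD, unlike for the proteases, replicate 1 was highest for 10 of them and replicate 3 for 5. The part of the intestine's share of RNA in the protease values was not tested.

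**Figure D4:**
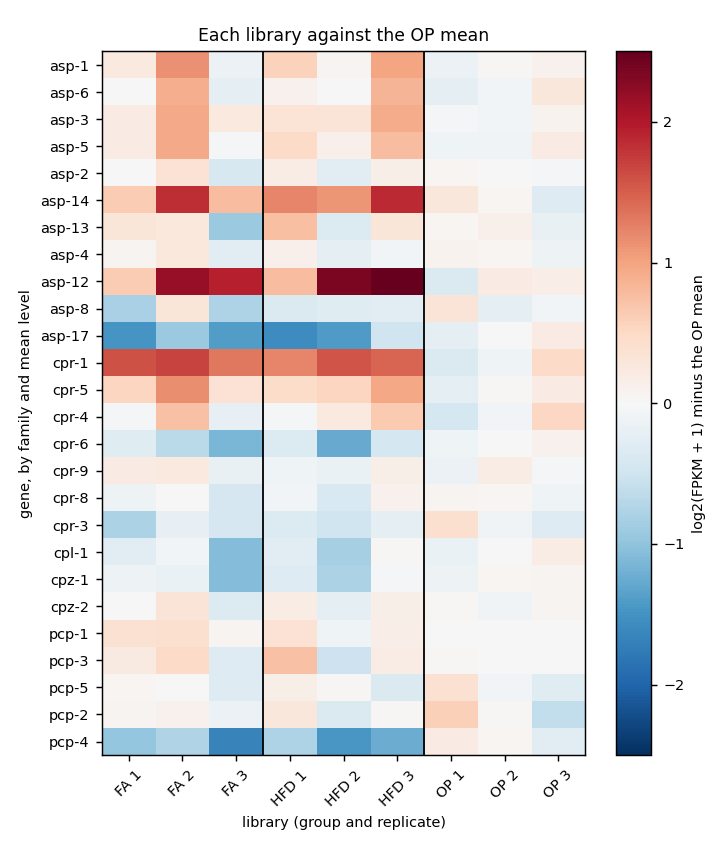
Level of each tested protease in each library as log2(FPKM + 1) minus the mean of the 3 OP libraries (colour scale from -2.5 to 2.5, red higher); columns are libraries, with FA, then HFD, then OP. The row of cpr-1 is red in all FA and HFD columns, and FA replicate 2 and HFD replicate 3 are the reddest columns among the abundant asp genes.

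The remaining 7 proteases did not reach the level for testing and are given as reads recovered from the FPKM values, with no test in the main fit. In the limma fit without a filter on low values, none of those with reads passed. The lowest adjusted p there were those of asp-15, at 0.117 in FA against OP and 0.121 in HFD against OP. Adding 1 to such low values shrinks their fold changes, so this fit says little about them. For asp-15 the log2 fold changes were 0.82 in FA against OP and 0.93 in HFD against OP. Its mean FPKM was 16.9 times that of OP in FA and 20.5 times in HFD. The highest mean of the 7 was that of asp-15, at 0.684 FPKM over the 9 libraries. It had 12, 32 and 16 reads in FA and 14, 14 and 48 in HFD, against 2, 1 and 1 in OP. Only its HFD replicate 3 and FA replicate 2 reached 1 FPKM, at 1.97 and 1.54. The few reads of its neighbour asp-16 lay mostly in OP, with 0, 1 and 1 in FA and 0, 0 and 1 in HFD, against 2, 5 and 12 in OP. The lowest of the tested proteases was asp-17, which adjoins asp-16 on the chromosome and lay above 1 FPKM in all 9 libraries, at 2.91 to 12.4 FPKM. The cathepsin B-like gene cpr-2 had 0, 10 and 3 reads in FA, 6, 0 and 8 in HFD, and 6, 26 and 32 in OP, with 1.21 and 1.36 FPKM in OP replicates 2 and 3.

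Reads of asp-9 numbered 4, 10 and 25 in FA, 1, 5 and 4 in HFD, and 8, 8 and 5 in OP, and asp-7 had 0 to 6 in any library. For asp-18 there were 2 reads in FA replicate 2 and 0 in every other library, and asp-19 had 0 reads in all 9, which allows up to 3 reads in a library by counting error. At these depths a difference between groups in asp-7, asp-18 and asp-19 was not detectable. So the cluster of asp-17, asp-16, asp-15 and asp-1 held neighbours at very unequal levels, from at most 0.446 FPKM for asp-16 and 1.97 FPKM for asp-15 to at least 3543 FPKM for asp-1.

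Other genes of protein breakdown in gut and lysosome were taken from lists chosen by function. As background to their counts, 7.35% of all genes tested were called in HFD against OP and 14.6% in FA against OP. The protease inhibitors of the cystatin family did not pass: cpi-1 averaged 80.3 ± 14.15 FPKM in FA, 82.2 ± 16.6 in HFD and 92.9 ± 8.20 in OP, and cpi-2 59.0 ± 9.32, 60.6 ± 4.23 and 66.2 ± 3.33 FPKM. Of the 21 subunits of the V-ATPase, the pump that acidifies lysosomes and the gut lumen, 0 passed in HFD against OP with a median log2 fold change of 0.32. In FA against OP 3 rose, vha-11 (log2 fold change 0.51, adjusted p = 0.0273), vha-10 (0.51, 0.0451) and vha-15 (0.46, 0.0463), with a median of 0.35 over the list. All 3 calls were lost without OP replicate 2, OP replicate 3 or FA replicate 2, with adjusted p up to 0.184, and further ones were lost without FA replicate 1 (vha-10 0.0865, vha-11 0.0520), OP replicate 1 (vha-10 0.0569, vha-15 0.0644) or FA replicate 3 (vha-15 0.0765). The 10 calpain genes, cytosolic cysteine proteases of another family, had 9 measured members, of which clp-6 fell to 4.21 ± 0.472 FPKM in HFD, against 10.2 ± 2.31 in OP (adjusted p = 0.0258). That call was kept only without OP replicate 1 among the libraries left out in turn, with adjusted p up to 0.121 without OP replicate 2. In FA against OP clp-6 and clp-3 fell (adjusted p = 0.00411 and 0.0262), the call of clp-3 being lost without OP replicate 2 (0.102), OP replicate 3 (0.103), FA replicate 2 (0.0891) or FA replicate 3 (0.0618).

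Serine carboxypeptidases of the cathepsin A kind, which trim amino acids from the carboxyl end of peptides, rose where they passed the test. In the list of 22 such peptidases and peptide uptake genes, 3 rose and 0 fell in HFD against OP. In FA against OP 4 rose and 0 fell, and the medians of the 2 comparisons were 0.06 and 0.07. Over all genes tested 2.74% and 4.61% were called higher, and 4.62% and 9.96% lower. The gene ctsa-4.1 had 29.997, 41.1 and 47.6 FPKM in FA, 40.2, 37.9 and 52.1 in HFD, and 16.9, 16.9 and 13.6 in OP. Its groups did not overlap the control group (HFD against OP log2 fold change 1.395, SE 0.19, adjusted p = 0.00248; at most 0.0146 without any 1 library). The gene ctsa-4.2 averaged 86.9 ± 30.3 FPKM in FA and 93.2 ± 24.5 in HFD, against 29.9 ± 6.45 in OP (HFD against OP adjusted p = 0.00863; at most 0.0434 without any 1 library). The call of ctsa-2 in HFD against OP (log2 fold change 0.93, adjusted p = 0.0486) was kept only without HFD replicate 2 among the libraries left out in turn, with adjusted p up to 0.146. In FA against OP ctsa-2 passed (0.94, adjusted p = 0.0288) but not without FA replicate 2 or any 1 OP library (up to 0.105), and ctsa-3.1 passed (0.64, adjusted p = 0.0199) but not without OP replicate 2, OP replicate 3 or FA replicate 2 (up to 0.0799).

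Among 32 other lysosomal enzymes and membrane proteins, 2 rose and 2 fell in HFD against OP. In FA against OP 3 rose and 2 fell, and the medians of the 2 comparisons were 0.0028 and 0.01. Over all genes tested 7.35% and 14.6% were called in either direction. The glucocerebrosidase family had members called in both directions. The gene gba-4 had 4.05, 1.73 and 2.40 FPKM in FA, 1.98, 1.37 and 1.13 in HFD, and 18.3, 22.3 and 24.9 in OP (HFD against OP log2 fold change -3.198, SE 0.23, adjusted p = 7.47e-05). The level of gba-1 averaged 28.01 ± 1.91 FPKM in FA and 27.9 ± 2.06 in HFD, against 17.5 ± 2.74 in OP (HFD against OP adjusted p = 0.0194, and up to 0.0965 on leaving out replicate 2 of OP or replicate 2 or 3 of HFD, each of which ended the call). In FA against OP the call of gba-1 was lost only without OP replicate 2 (0.0525). The gene gba-2 had 2.53, 7.52 and 19.4 FPKM in FA, 2.52, 10.3 and 6.26 in HFD, and 0.354, 0.311 and 0.455 in OP, with libraries of 1 group differing several-fold. Its call in HFD against OP (adjusted p = 0.0374) was kept only without HFD replicate 1 (up to 0.144), and that in FA against OP (0.0117) held whichever library was left out. Of the ceramidase genes, asah-2 fell in both comparisons (adjusted p = 0.0313 in HFD against OP and 0.0299 in FA against OP). Dropping OP replicate 2 or 3 ended both calls, as did HFD replicate 1 or 2 in the one and FA replicate 2 or 3 in the other (up to 0.125 and 0.0914). The gene asah-1 rose in FA against OP (1.17, adjusted p = 0.0303), and its call was kept only without OP replicate 3 or FA replicate 1 (up to 0.115 without OP replicate 2). The transcripts of the regulators ELT-2, the GATA factor of the intestine, and HLH-30, which drives lysosome genes, did not pass: elt-2 averaged 13.8 ± 3.26 FPKM in FA, 13.9 ± 3.71 in HFD and 13.9 ± 2.34 in OP, and hlh-30 43.5 ± 8.55, 44.1 ± 3.24 and 39.9 ± 2.16. In the list of 14 such regulators 0 passed in HFD against OP, FA against HFD or FA against OP, by limma at an adjusted p under 0.05.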

How the data were processed

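RNA from whole worms was sequenced in 9 libraries (FA, HFD and OP, 3 each). The deposited data are 1 table with an FPKM column per library for 46986 genes, which also gives each gene's name, place, length and type, per the file headers; 0 further columns of values per sample were present. Its control columns, named OP50 with a number, were matched by number to the samples titled OP. The submitters' processing notes name the build WBcel235. The sources used here do not name the aligner, the counter or the strand setting. FPKM times gene length gave whole multiples of 1 step for 100% of values (tolerance 0.01 of a read), so reads were recovered: 17514542 to 21419867 per library. The library sizes behind these steps ran from 16753752 to 23047890, so the FPKM were not scaled to these read totals. A gene of 1 kb with 3 reads has 0.130 to 0.179 FPKM. Intervals and floors cover counting error only where reads are given.

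Tests on log2(FPKM + 1) used limma (version 3.58.1, R 4.3.3) with a mean-variance trend, 3 group means over all 9 libraries, and Benjamini-Hochberg adjustment over 14730 genes. These had at least 1 FPKM in at least 3 libraries and a gene name; 52 loci without a name, with 0.0184% to 0.0293% of the reads, were left out. Fold changes are on the log2(FPKM + 1) scale and understate those of low genes. The test was tried on simulated data. The members, lists and rules were chosen with earlier results of these data known. Members called in a comparison, the 6 most abundant of the others, the most abundant of any family not yet named and the 5 lowest p of FA against HFD are given with values. Of the names on the 12 lists 2 were not matched in the table. Positions of all 33 members equal those of Ensembl release 115. Replicate numbers were not used to pair libraries. Alternatives were other pseudocounts, filters, scalings, spreads, a replicate block, robust moderation, voom, a stricter threshold and each library left out in turn. Protein and promoter sequences were not analysed here.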

Additional observations from a re-analysis of the deposited data

How the results depend on the processing

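The direction of every called protease was the same under all alternatives. In HFD against OP 3 proteases were higher and 2 lower; without a filter on low values (23638 genes tested) the numbers were 1 and 0, at an adjusted p under 0.01 they were 1 and 0, and with 1 library left out they ranged from 1 to 2 and from 0 to 1. In FA against OP 2 were higher and 2 lower; without a filter 1 was higher, at 0.01 the numbers were 1 and 0, and with 1 library left out they ranged from 1 to 3 and from 0 to 3. In FA against HFD the numbers were 0 and 0 under every alternative. The count over all genes in HFD against OP was 1083, and 472 without a filter, 269 at 0.01 and 280 to 944 with 1 library left out, lowest without OP replicate 2; each library but OP replicate 1 moved it by over 1.5 times. In FA against OP it was 2146, and 1424, 818 and 967 to 2536 under those settings, moved by over 1.5 times without OP replicate 2 or 3 or FA replicate 2 or 3. Median centring moved the share of calls that were higher in FA against OP to 41.98%, where it was 31.6%. In HFD against OP, the limma fit without a filter ended the calls of asp-12 (adjusted p = 0.123), asp-14 (0.0847), asp-17 (0.0924) and pcp-4 (0.0745). In FA against OP it ended that of asp-14 (0.108). That fit estimated the spread anew over more genes and also adjusted over more genes. The part of each in the lost calls was not tested. A spread from only FA and OP gave 0.0555 for asp-14 and 0.0270 for asp-12. cpr-5 passed with a spread from only HFD and OP (0.0427) and, in FA against OP, when scaled to library totals (0.0430). Values that were not called changed sign with 1 library left out in many proteases. Among these were asp-1 in FA against HFD (-0.49 to 0.15) and cpr-4 in FA against OP (-0.11 to 0.43). Further examples follow. They ranged in FA against HFD from -0.93 to 0.14 for asp-12, -0.31 to 0.23 for asp-17, -0.16 to 0.30 for pcp-4 and -0.64 to 0.0541 for asp-13; in HFD against OP from -0.0192 to 0.53 for asp-13 and -0.14 to 0.0521 for cpr-9 (0.0254 with median centring); and in FA against OP from -0.33 to 0.29 for asp-13 and -0.11 to 0.46 for asp-6. The cause was not tested.

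Same-numbered libraries did not deviate together throughout. Their correlations were -0.227 to 0.299, over 0.1 in 3 of 9 pairs, and those of differently numbered pairs -0.244 to 0.182. The highest was that of HFD replicate 1 with FA replicate 1. A library's own number was best in 7 of 18 cases, where each case was a choice among the 3 libraries of another group. With the replicate number as a block 3 proteases were higher and 2 lower in HFD against OP, 0 and 0 in FA against HFD, and 2 and 2 in FA against OP, where asp-12 passed (adjusted p = 0.00809) and asp-14 did not (0.0690). Among the other genes named, the block ended the calls of ctsa-2 in HFD against OP (0.0916) and FA against OP (0.0590), clp-6 in HFD against OP (0.0599), and clp-3 (0.0547) and vha-15 (0.0587) in FA against OP, and asah-1 passed in HFD against OP (0.0277).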
